A study of Homo sapiens with 12 samples.

Results

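Neuronal filament and secretory vesicle genes were examined in TC71, a human Ewing sarcoma cell line, across the rescue line, both ID2 knockout clones and wild-type cells. The set held 10 genes, namely PRPH, TUBB3, CHGA, CHGB, SYP, SNAP25, RAB3C, NEFL, NEFM and STMN2, and a gene was taken when its Ensembl identifier mapped to one of these symbols. Of the 10 genes, 7 had a row among the 21569 genes of the count table, and SNAP25, NEFL and STMN2 were not analysed here. The 4 groups of 3 libraries were a line labelled as a rescue of ID2 knockout clone 2 and called the rescue line here after that label, knockout clone 2 itself, knockout clone 1, and wild-type TC71, and all were libraries of polyadenylated RNA from cells of 1 line. Each knockout group is 1 clone, and the rescue line comes from clone 2, so differences between cloned lines and an effect of ID2 cannot be told apart. The labels do not say whether replicate libraries are of separate cultures. The p-values therefore rest on the spread among these libraries, which may be technical.

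ID2 is a helix-loop-helix protein that lacks a DNA-binding domain and holds E proteins away from the E-box, the DNA motif they bind. Neurons fill their axons with intermediate filaments made of neurofilament subunits and peripherin, and with microtubules that contain the neuron-enriched beta-tubulin TUBB3. They release transmitters from small synaptic vesicles, which carry synaptophysin and RAB3 GTPases, and peptides from dense-core granules, which are packed with chromogranins. Ewing sarcoma cells can show some of these neural features.

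Totals ran from 19420408 to 29748084 counts per library. Levels are CPM (read counts scaled by library size, with TMM factors for differences in RNA composition), with the SD over n = 3 libraries. ID2 RNA stood at 41.5 ± 0.537 CPM in the rescue libraries, 50.9 ± 3.16 in clone 2, 18.1 ± 0.777 in clone 1 and 77.9 ± 0.657 in wild-type, so the libraries labelled rescue had less of it than clone 2 (log2 fold change -0.29, SE 0.047, edgeR adjusted p = 3.52e-06). At the RNA level ID2 thus goes against the label in each comparison of rescue with clone 2. Of 12 Ewing sarcoma markers, 12 had reads in each group, with summed levels of 2886 to 2959 CPM in the rescue libraries, 3468 to 3635 in clone 2, 2970 to 3015 in clone 1 and 3038 to 3111 in wild-type. Markers of other cell types also moved. The summed level of 4 epithelial markers was 76.9 to 86.7 CPM in the rescue libraries, 152.4 to 190.7 in clone 2, 882.9 to 950.5 in clone 1 and 115.0 to 121.5 in wild-type, and that of 5 fibroblast markers 39.8 to 46.6, 146.5 to 170.0, 342.6 to 368.4 and 164.6 to 172.7 CPM in the same order of groups. The summed levels of 4 glial markers were 2.09 CPM or less and those of 3 melanocyte markers 3.75 CPM or less in each library, and PTPRC, the blood cell marker with a row, reached at most 0.153 CPM. Their part in the results below was not tested. In bulk RNA, fewer cells that express a gene and less RNA per cell cannot be told apart.

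For 5 of the 7 genes, 6 windows of 250 bases before a transcription start were taken from the RefSeq table (GRCh38.p14). NEFM was left out of this search, and CHGB had no entry in that table. The windows were searched on both strands for the E-box CANNTG, its forms CAGCTG and CACCTG, which overlap it, and the cAMP response element TGACGTCA. Windows of 3 genes are shown because their readouts differ most: PRPH was lowest in clone 2, RAB3C was highest there, and CHGA had few reads in any group. Capitals mark CANNTG and TGACGTCA, 5′ to 3′ along the gene.
PRPH, chr12:49294897-49295146, plus strand: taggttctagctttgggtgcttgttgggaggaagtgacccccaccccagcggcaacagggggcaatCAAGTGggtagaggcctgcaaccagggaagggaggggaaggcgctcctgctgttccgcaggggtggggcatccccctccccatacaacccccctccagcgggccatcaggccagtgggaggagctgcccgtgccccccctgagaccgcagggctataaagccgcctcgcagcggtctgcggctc
RAB3C, chr5:58582825-58583074, plus strand: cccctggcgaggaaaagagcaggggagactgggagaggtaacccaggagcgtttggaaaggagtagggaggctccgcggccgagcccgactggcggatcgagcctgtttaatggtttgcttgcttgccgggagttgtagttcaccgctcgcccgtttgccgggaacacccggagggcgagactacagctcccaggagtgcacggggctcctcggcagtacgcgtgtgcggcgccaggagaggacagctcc
CHGA, chr14:92922900-92923149, plus strand: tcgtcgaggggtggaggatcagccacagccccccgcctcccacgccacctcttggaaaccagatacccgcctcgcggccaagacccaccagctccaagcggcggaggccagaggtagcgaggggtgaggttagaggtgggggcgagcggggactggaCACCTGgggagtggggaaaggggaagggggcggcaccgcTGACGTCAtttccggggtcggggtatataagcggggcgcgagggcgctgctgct
The PRPH window holds 1 CANNTG, and the CHGA window holds 1 CANNTG, which is a CACCTG, and 1 TGACGTCA. The RAB3C window, the SYP window and both TUBB3 windows hold 0 of the motifs searched. Among 35114 promoter windows of the same length, 61.8% hold CANNTG, 14.0% CAGCTG, 17.5% CACCTG or its complement, and 1.65% TGACGTCA. The windows of these genes were 64.8% to 78.0% G and C, against a median of 58.0% over all windows.

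The genes were chosen by name with earlier results of these libraries in view. Among the values behind the choice were those of clone 2 against wild-type, in which RAB3C, CHGB and TUBB3 had been named as higher, so values of that comparison are given as a description, with no test. The other comparisons were tested with edgeR's quasi-likelihood test over 17084 genes, with Benjamini-Hochberg adjustment over all of them, and a gene was called at an adjusted p under 0.05. All but rescue against clone 1 share clone 2 or wild-type libraries with the comparison in which genes had been named. In those comparisons the p-values of RAB3C, CHGB and TUBB3 are therefore not independent of the choice of these genes. Of the 7 genes, 6 passed the filter on low counts, which asks for about 0.399 CPM in 3 libraries. NEFM, PRPH and SYP were above that level in each group, whereas TUBB3, CHGB and RAB3C passed through groups in which they are higher, and CHGA was under it in each group.

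In clone 1 against wild-type, 2 of the genes rose and 3 fell, or 2 in a fit of those groups alone, which drops RAB3C, where 30.8% of all genes tested were called higher and 30.7% lower. Between rescue and clone 2, 2 rose and 3 fell in rescue, where 19.3% of all genes were called higher and 19.9% lower. In rescue against wild-type, 4 rose and 1 fell, where 28.5% were called higher and 29.9% lower. In clone 2 against clone 1, 5 were higher and 1 lower, where 30.3% were called higher and 31.9% lower. In rescue against clone 1, 5 were higher and 1 lower, where 31.2% were called higher and 32.8% lower. In clone 2 against wild-type, 31.5% of all genes were called higher and 30.6% lower. With a filter that keeps a gene because it is high somewhere, and such large shares of all genes tested called, nothing is read from these counts. The genes did not move as a block, and the sections that follow take them by role.

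**Figure D1:**
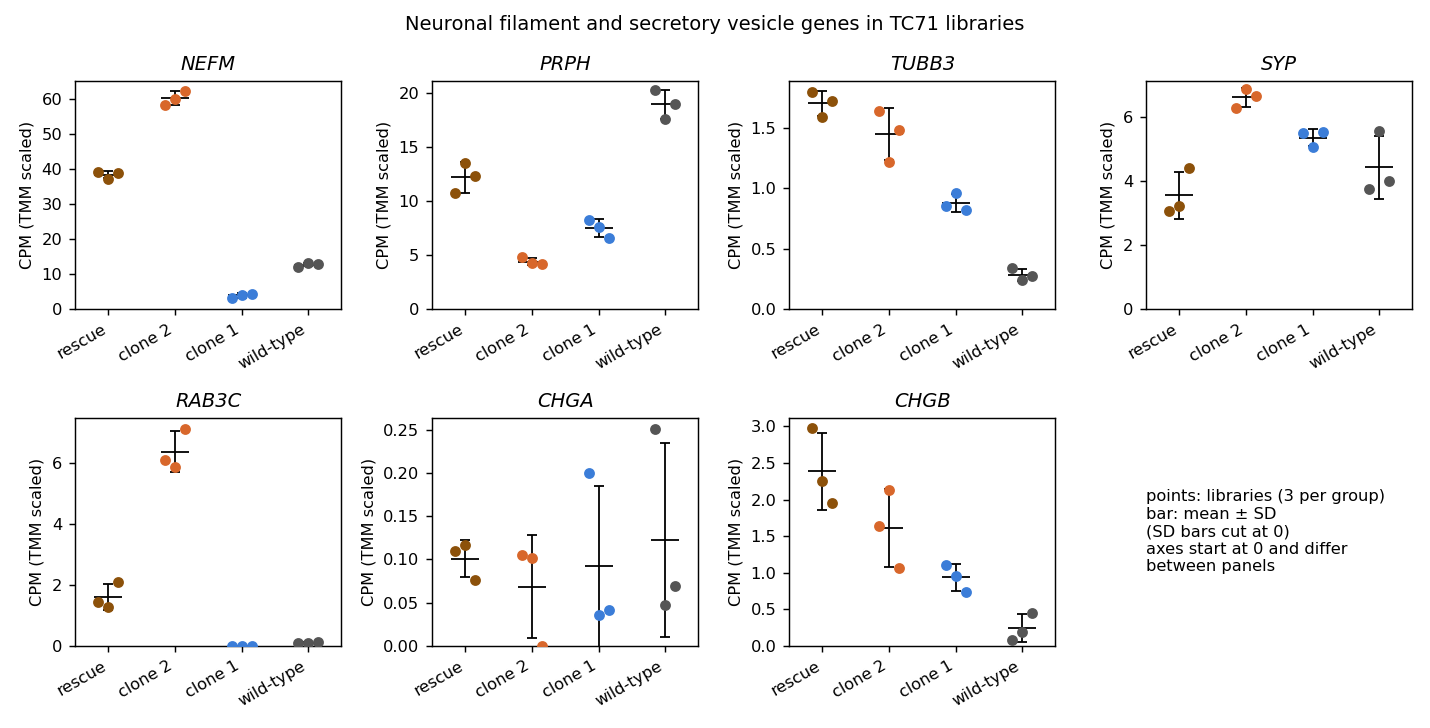
Level of each gene in CPM (vertical axis, from 0, with its own scale per panel) in the 12 libraries, grouped as rescue, clone 2, clone 1 and wild-type; points are libraries and bars the mean ± SD. NEFM stands at 58.3 to 62.3 CPM in clone 2 against 12.2 to 13.2 in wild-type, PRPH at 4.12 to 4.78 against 17.6 to 20.3, and the 4 CHGA groups overlap.

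The filament genes NEFM and PRPH moved apart. NEFM (ENSG00000104722, hg38 chr8:24913012-24919098, plus strand) encodes the medium neurofilament subunit, which sets the calibre of axons together with its light and heavy partners. It had 39.2, 37.2 and 38.8 CPM in the rescue libraries, 58.3, 60.2 and 62.3 in clone 2, 3.20, 4.12 and 4.32 in clone 1 and 12.2, 13.2 and 12.9 in wild-type. No group overlapped another, and the order ran from clone 2 through rescue and wild-type to clone 1. NEFM fell in clone 1 against wild-type, with a log2 fold change of -1.70 (SE 0.094; edgeR adjusted p = 4.25e-19), whereas clone 2 stood 4.73-fold above wild-type, a log2 fold change of 2.24 (SE 0.059). Clone 2 was 15.3-fold above clone 1 (edgeR adjusted p = 2.76e-35). In rescue against clone 2 it fell by 0.65 on the log2 scale (SE 0.049; edgeR adjusted p = 3.75e-14), and the rescue libraries still stood 3.02-fold above wild-type (edgeR adjusted p = 4.02e-24).

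NEFM lies on chromosome 8, where the 486 genes at 1 CPM or more had a median log2 fold change against wild-type of -0.21 for the rescue line, -0.22 for clone 2 and -0.21 for clone 1. With the median of all tested genes of that chromosome subtracted, the log2 fold change of NEFM against wild-type was 1.78 for the rescue line and 2.42 for clone 2. Since the chromosome median was negative in clone 1 too, such a subtraction makes the fall of NEFM there smaller. An antisense gene, AF106564.1, covers 38.9% of the exonic bases of NEFM, and since the strand setting of the counting is not given, reads of the pair cannot be told apart with certainty. That gene had 209, 217, 27 and 113 reads in the rescue, clone 2, clone 1 and wild-type groups, against 3045, 4207, 285 and 942 of NEFM.

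PRPH (ENSG00000135406, hg38 chr12:49293252-49298686, plus strand) encodes peripherin, the filament protein of peripheral and sensory neurons. It had 10.7, 13.5 and 12.3 CPM in the rescue libraries, 4.78, 4.25 and 4.12 in clone 2, 8.25, 7.61 and 6.59 in clone 1 and 20.3, 17.6 and 18.9 in wild-type. Wild-type was highest and clone 2, which was highest for NEFM, was lowest, and again no groups overlapped. PRPH fell in clone 1 against wild-type by 1.35 on the log2 scale (SE 0.089; edgeR adjusted p = 1.09e-16), and clone 2 stood at 0.233 of wild-type. It rose 2.74-fold in rescue against clone 2, a log2 fold change of 1.46 (SE 0.11; edgeR adjusted p = 1.18e-14), but remained 0.641 of wild-type (edgeR adjusted p = 5.21e-09). An antisense gene, AC125611.4, overlaps 56.2% of its exonic bases and had 17 to 25 reads per group, against 310 to 1403 of PRPH.

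Levels of the other filament genes were compared per kb of exons. NEFH, the heavy neurofilament subunit, was at 169.9 CPM per kb in the rescue libraries, 183.4 in clone 2, 199.8 in clone 1 and 222.3 in wild-type, where NEFM was at 8.77, 13.8, 0.886 and 2.91 and PRPH at 2.79, 1.01, 1.72 and 4.35. NEFH fell in clone 1 and in the rescue line against wild-type, with log2 fold changes of -0.15 and -0.39. INA, alpha-internexin, showed the low level in clone 1 that NEFM showed: it stood at 1.68 CPM there against 6.68 in wild-type, and the rescue libraries were 4.92-fold above clone 1 (edgeR adjusted p = 2.38e-16). NES, the filament of neural progenitors, ran the other way and rose 3.19-fold in clone 1 against wild-type, to 2.84 CPM against 0.903. VIM, the vimentin of mesenchymal cells, rose 1.61-fold in rescue against clone 2 and 1.88-fold in rescue against wild-type. Of 6 listed genes, which include the filament linker DST, 3 rose and 2 fell in clone 1, 3 were called higher and 1 lower in clone 2 and 3 rose and 1 fell in rescue, each against wild-type. Against clone 2, 1 rose and 2 fell in the rescue line, but 0 fell without clone 2 replicate 1, rescue replicate 1 or rescue replicate 2, and 1 fell with no filter. Among all genes tested, 30.8% were called higher and 30.7% lower in clone 1 and 31.5% and 30.6% in clone 2, against wild-type. Rescue had shares of 28.5% and 29.9% against wild-type and 19.3% and 19.9% against clone 2.

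TUBB3 (ENSG00000258947, hg38 chr16:89921392-89938761, plus strand) was low in each group. It had 1.80, 1.59 and 1.72 CPM in the rescue libraries, 1.64, 1.21 and 1.48 in clone 2, 0.850, 0.960 and 0.823 in clone 1 and 0.336, 0.237 and 0.276 in wild-type, the last from 21 reads in all. Wild-type lay below each other group, and only rescue and clone 2 overlapped. TUBB3 rose 3.07-fold in clone 1 against wild-type, a log2 fold change of 1.62 (SE 0.33; edgeR adjusted p = 4.77e-05), and clone 2 stood 5.09-fold above wild-type. In rescue against clone 2 the log2 fold change was 0.22 (SE 0.20) and did not pass the test (edgeR adjusted p = 0.423), while in rescue against wild-type it was 2.56 (SE 0.28; edgeR adjusted p = 2.86e-10). TUBB3 had been named as higher in clone 2 than in these wild-type libraries. Its p-values that use either group are not independent of its choice. Clone 2 was 1.66-fold above clone 1 (edgeR adjusted p = 0.00655), a call that was lost without clone 2 replicate 1 (edgeR adjusted p = 0.0552). A readthrough gene, AC092143.1, shares 35.8% of the exonic bases of TUBB3 and was not analysed here, so how reads of the shared part were assigned is uncertain.

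Per kb of exons TUBB3 was the lowest of the 7 beta-tubulins measured in each group, at 0.384 CPM per kb in the rescue libraries, 0.326 in clone 2, 0.198 in clone 1 and 0.0638 in wild-type. TUBB, the most abundant of them, was at 578.0, 456.7, 481.0 and 693.9 CPM per kb in these groups. The place of TUBB3 in this order is uncertain, since reads of the exonic part shared with AC092143.1 may not have been counted for it. The beta-tubulin TUBB2B of developing brain rose 1.34-fold in clone 1 against wild-type and was 1.72-fold above it in clone 2, whereas TUBB was at 0.658 of wild-type in clone 2. The alpha-tubulin TUBA4A, like NEFM and INA, was low in clone 1, at 0.423 of wild-type (edgeR adjusted p = 5.37e-24), and the rescue libraries were 4.09-fold above clone 1. Of 11 other tubulin genes, 4 rose and 7 fell in clone 1 and 3 were called higher and 6 lower in clone 2, against wild-type. Against clone 2, the rescue line had 7 that rose, led by TUBA1C at 1.30-fold, and 1 fell, TUBB4A, to 0.680 of clone 2. The list's median log2 fold change in that comparison was 0.27, where that of all genes tested was 0.00 and 19.3% of all genes were called higher and 19.9% lower. Against wild-type the shares of all genes called higher and lower were 30.8% and 30.7% in clone 1 and 31.5% and 30.6% in clone 2.

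Of 11 stathmins and neuronal microtubule-associated proteins tested, of 14 listed, 9 fell in clone 1 against wild-type, 0 rose and 2, MAP2 and MAPT, did not pass the test (chosen for naming after their values were seen). The list's median log2 fold change was -0.44, where that of all genes was 0.01 and 30.7% of all genes were called lower. DPYSL3, a collapsin response mediator of growth cones, had 1.02 ± 0.234 CPM in clone 1 against 35.6 ± 2.82 in wild-type (edgeR adjusted p = 8.49e-33) and stood at 29.8 in the rescue libraries and 29.2 in clone 2. In clone 2, 2 members were called higher, or 4 with upper quartile scaling or library totals, and 7 lower than in wild-type. MAP1A, a microtubule-binding protein of neurons, was 1.66-fold above wild-type there, and CRMP1 was at 0.343 of it. MAP1B, which binds microtubules in growing axons, rose 1.47-fold in rescue against clone 2, one of 4 that rose there while 1 fell. The shares of all genes called higher and lower were 19.3% and 19.9% there and 31.5% and 30.6% in clone 2 against wild-type.

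SYP (ENSG00000102003, hg38 chrX:49187804-49200259, minus strand) encodes synaptophysin, a membrane protein of synaptic vesicles that is used as a neuroendocrine marker. It had 3.05, 3.22 and 4.40 CPM in the rescue libraries, 6.28, 6.88 and 6.67 in clone 2, 5.50, 5.05 and 5.52 in clone 1 and 3.73, 5.54 and 3.999 in wild-type. Clone 2 lay above the other groups, and wild-type overlapped both clone 1 and the rescue line. SYP fell in rescue against clone 2 by 0.89 on the log2 scale (SE 0.13; edgeR adjusted p = 7.74e-07) and in rescue against clone 1 by 0.59 (SE 0.14; edgeR adjusted p = 0.000291). Clone 2 was 1.51-fold above wild-type. Against wild-type, the log2 fold changes of 0.29 in clone 1 (SE 0.13; edgeR adjusted p = 0.0615) and -0.30 in the rescue line (SE 0.14; edgeR adjusted p = 0.0703) did not pass the test. Both results depended on single libraries. Clone 1 passed without wild-type replicate 2 (edgeR adjusted p = 0.00456), with library totals as the only scaling (edgeR adjusted p = 0.0297) and with limma-voom (adjusted p = 0.0498), and the rescue line passed without wild-type replicate 1, wild-type replicate 3 or rescue replicate 3 (edgeR adjusted p = 0.0258, 0.0460 and 0.00827). Clone 2 was 1.23-fold above clone 1 (edgeR adjusted p = 0.0352), and this call was lost without any 1 of 5 of the 6 libraries compared, clone 2 replicate 1 being the exception, with edgeR adjusted p of 0.0555 to 0.140, and with DESeq2 (adjusted p = 0.0755).

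Of 14 other vesicle membrane genes tested, of 16 listed, 8 fell and 3 rose in rescue against clone 2, with a median log2 fold change of -0.35, and 10 were lower and 2 higher than in clone 1, with a median of -0.52, where the medians of all genes were 0.00 in both. SYT4, a synaptotagmin of large vesicles, had 0.212 CPM in the rescue libraries and 0.628 in clone 2, against 3.65 in wild-type. SYNGR3, a synaptogyrin, was highest in clone 1, at 3.71 ± 0.321 CPM against 0.178 ± 0.0558 in wild-type (edgeR adjusted p = 2.96e-16), and stood at 0.0748 in the rescue libraries and 0.228 in clone 2. SYT11 was 2.71-fold above wild-type in clone 2 and 1.78-fold above it in the rescue line. In rescue against clone 2 SYT11 fell by 0.61 on the log2 scale (edgeR adjusted p = 1.24e-06). SV2A, a vesicle glycoprotein, rose 1.46-fold in rescue against clone 2, whereas its relative SV2B fell there by 1.03 on the log2 scale (edgeR adjusted p = 6.21e-21). SV2B stood at 0.542 of wild-type in clone 1. Against wild-type, 6 members rose and 4 fell in clone 1, 4 were called higher and 5 lower in clone 2, and 6 rose and 4 fell in the rescue line. The number lower was 3 in clone 2 with upper quartile scaling and 7 in the rescue line without rescue replicate 1. Over all genes tested, 30.8% were called higher and 30.7% lower in clone 1 and 31.5% and 30.6% in clone 2, against wild-type. For rescue these shares were 28.5% and 29.9% against wild-type, 19.3% and 19.9% against clone 2 and 31.2% and 32.8% against clone 1.

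RAB3C (ENSG00000152932, hg38 chr5:58582221-58859394, plus strand) encodes a small GTPase that sits on secretory vesicles and takes part in their docking. It had 1.43, 1.28 and 2.10 CPM in the rescue libraries, 6.11, 5.87 and 7.13 in clone 2, no read in any clone 1 library, and 0.0839, 0.0948 and 0.138 CPM in wild-type. In reads, this was 39, 33 and 55 in the rescue libraries and 175, 116 and 154 in clone 2, against 2, 2 and 4 in wild-type. No groups overlapped, and most RAB3C reads were in clone 2 and the line made from it. The count ratio of clone 2 to wild-type was 58.8, a description with no test, since RAB3C had been named in that comparison. Against a floor of 3 counts over the clone 1 group, RAB3C was 153-fold higher in clone 2 (edgeR adjusted p = 2.86e-21) and 38.7-fold higher in the rescue line (edgeR adjusted p = 1.96e-13). The exact 95% counting intervals of these ratios to clone 1 begin at 124.3 and 31.0. Clone 1 against wild-type was 0 reads against 8, with an exact interval of the ratio of 0 to 0.598 (edgeR adjusted p = 0.00576). RAB3C passed the filter only through the rescue and clone 2 libraries, and in a fit of clone 1 and wild-type alone it was filtered out and not tested. RAB3C fell in rescue against clone 2 by 1.99 on the log2 scale (SE 0.16; edgeR adjusted p = 6.89e-13) and stayed above wild-type, with a count ratio of 14.8 and an interval of 7.30 to 35.1. These intervals and floors cover counting error only, and p-values that use clone 2 or wild-type are not independent of the choice of RAB3C.

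Transcripts of other RAB3 proteins were present in each group. Per kb of exons, RAB3C reached 0.660 CPM per kb in clone 2, where RAB3A was at 5.17, RAB3B at 1.34 and RAB3D at 5.01. In wild-type RAB3C was at 0.0109 and those paralogs at 4.03, 1.37 and 4.17 (RAB3B is given as a paralog, chosen after its values were seen). RAB3D rose 2.38-fold in clone 1 against wild-type (edgeR adjusted p = 5.00e-22), the group with no RAB3C read, and RAB3A was 1.28-fold above wild-type in clone 2. RAB3IL1, an activator of RAB3A, was lowest in the rescue line, at 5.11 ± 0.246 CPM there, 16.7 ± 0.753 in clone 2, 37.3 ± 2.64 in clone 1 and 43.0 ± 1.36 in wild-type. SYTL5, a RAB27 effector, fell to 0.398 of wild-type in clone 1. Of 13 genes tested of 16 listed, 5 rose and 5 fell in clone 1, 2 were called higher and 7 lower in clone 2, and 0 rose and 8 fell in the rescue line, each against wild-type. The 5 that fell in clone 1 were 3 without clone 1 replicate 1, without clone 1 replicate 2 or with library totals, and 1 rose in the rescue line with library totals or upper quartile scaling. Against clone 2, 2 of the 13 rose and 5 fell in the rescue line, and 3 fell without rescue replicate 2 or with no filter. Of all genes tested, 30.8% were called higher and 30.7% lower in clone 1 and 31.5% and 30.6% in clone 2, against wild-type. In rescue the shares were 28.5% and 29.9% against wild-type and 19.3% and 19.9% against clone 2.

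**Figure D2:**
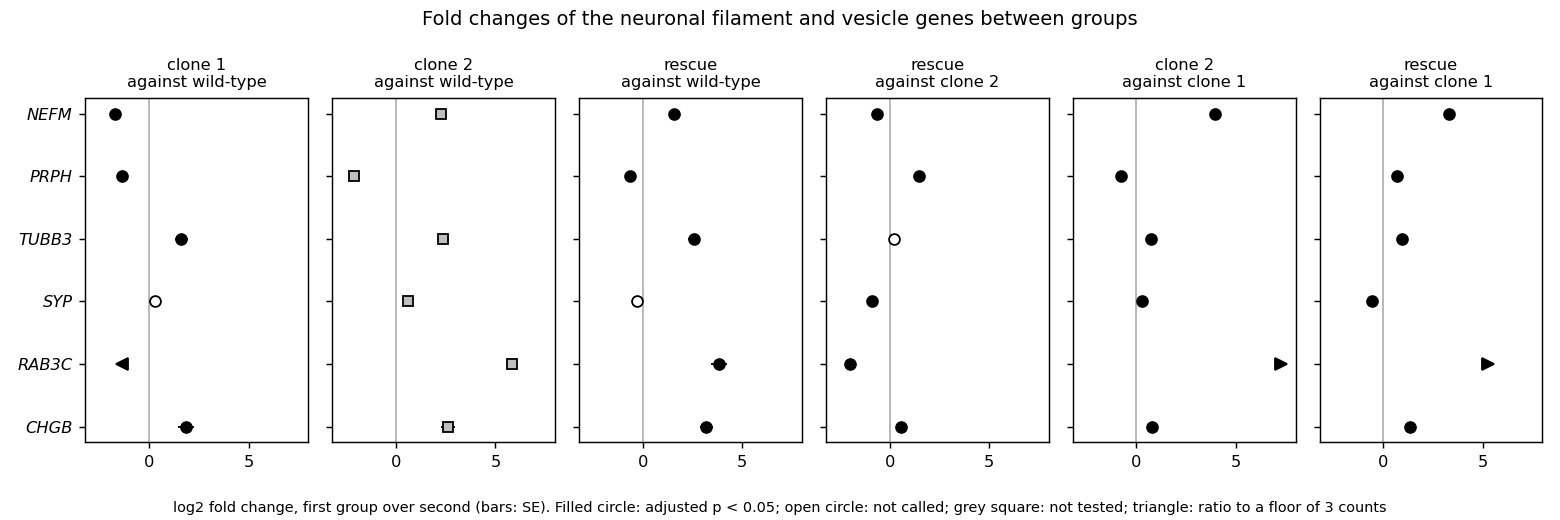
Log2 fold change, first group over second (horizontal axis), of the 6 genes that passed the filter in 6 comparisons, with SE as bars; filled circles passed the adjusted p, open circles did not, grey squares were not tested, and triangles are ratios of RAB3C to a floor of 3 counts, since it had no read in clone 1. NEFM lies at -1.70 in clone 1 and at 2.24 in clone 2, against wild-type, and PRPH at 1.46 in rescue against clone 2.

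CHGA and CHGB encode chromogranins, acidic proteins of dense-core granules. CHGB (ENSG00000089199, hg38 chr20:5911430-5925361, plus strand) had 2.97, 2.25 and 1.95 CPM in the rescue libraries, 1.64, 2.13 and 1.06 in clone 2, 1.10, 0.960 and 0.741 in clone 1 and 0.0839, 0.190 and 0.448 in wild-type. The wild-type libraries, with 2, 4 and 13 reads, lay below all others, while neighbours in the order from rescue through clone 2 to clone 1 overlapped. CHGB rose against wild-type by 3.20 on the log2 scale in the rescue line (SE 0.33, edgeR adjusted p = 3.98e-11) and by 1.83 in clone 1 (SE 0.41, edgeR adjusted p = 0.000146), and clone 2 stood 6.15-fold above wild-type. Without wild-type replicate 3 these log2 fold changes were 2.73 in clone 1, 4.11 in the rescue line and 3.52 in clone 2. CHGB had been named as higher in clone 2 than in these wild-type libraries. Its p-values that use either group are not independent of its choice. Rescue was 1.49-fold above clone 2 (edgeR adjusted p = 0.0363), with overlapping groups. That call was lost without clone 2 replicate 1, clone 2 replicate 3 or rescue replicate 1 (edgeR adjusted p = 0.0736, 0.209 and 0.224) and with DESeq2 (adjusted p = 0.110). Clone 2 was 1.73-fold above clone 1 (edgeR adjusted p = 0.0123), a call lost without clone 1 replicate 3 or clone 2 replicate 2 (edgeR adjusted p = 0.0692 and 0.0946). The rescue line was 2.58-fold above clone 1 (edgeR adjusted p = 7.58e-06), with no overlap.

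CHGA (ENSG00000100604, hg38 chr14:92923080-92935293, plus strand) had 3, 3 and 2 reads in the rescue libraries, 3, 2 and 0 in clone 2, 4, 1 and 1 in clone 1 and 6, 1 and 2 in wild-type. All groups overlapped, and their pooled levels of 0.101, 0.0714, 0.0828 and 0.122 CPM had exact 95% counting intervals between 0.0232 and 0.231. CHGA did not pass the filter on low counts, so no difference in it was tested. The ratio of clone 2 to wild-type was 0.587 for CHGA, with an interval of 0.154 to 1.95, and 6.23 for CHGB. CHGB had been named as higher in that comparison, so its ratio is a description with no test.

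Other granule genes differed among the lines too. SCG2, secretogranin II, was at 12.9 CPM per kb in the rescue libraries, 14.2 in clone 2, 16.1 in clone 1 and 5.78 in wild-type, where CHGB was at 0.527, 0.355, 0.206 and 0.0530. It rose 2.77-fold in clone 1 against wild-type (edgeR adjusted p = 1.13e-23). PCSK1, a convertase that cuts prohormones in granules, had 3.37 ± 0.337 CPM in the rescue libraries, 0.869 ± 0.239 in clone 2, 0.263 ± 0.129 in clone 1 and 0.245 ± 0.138 in wild-type, and rose 3.85-fold in rescue against clone 2 (edgeR adjusted p = 1.82e-09). The related convertase PCSK2 fell to 0.691 of clone 2 in the rescue line. CPE, the carboxypeptidase that trims the cut peptides, stood at 0.495 of clone 1 in clone 2 and 0.473 in the rescue line. Of 9 genes tested of 16 listed, 6 rose and 1 fell in clone 1, 6 were called higher and 1 lower in clone 2 and 5 rose and 3 fell in the rescue line, against wild-type. The number that fell in clone 1 was 0 without wild-type replicate 1, wild-type replicate 3 or clone 1 replicate 2, and the number lower in clone 2 was 2 without clone 2 replicate 3. Leaving out any 1 of the libraries compared gave 4 to 5 higher in clone 2. The rescue line had 2 that rose and 3 that fell against clone 2. Shares of all genes called higher and lower were 30.8% and 30.7% in clone 1 and 31.5% and 30.6% in clone 2, against wild-type. They were 28.5% and 29.9% in rescue against wild-type and 19.3% and 19.9% in rescue against clone 2.

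**Figure D3:**
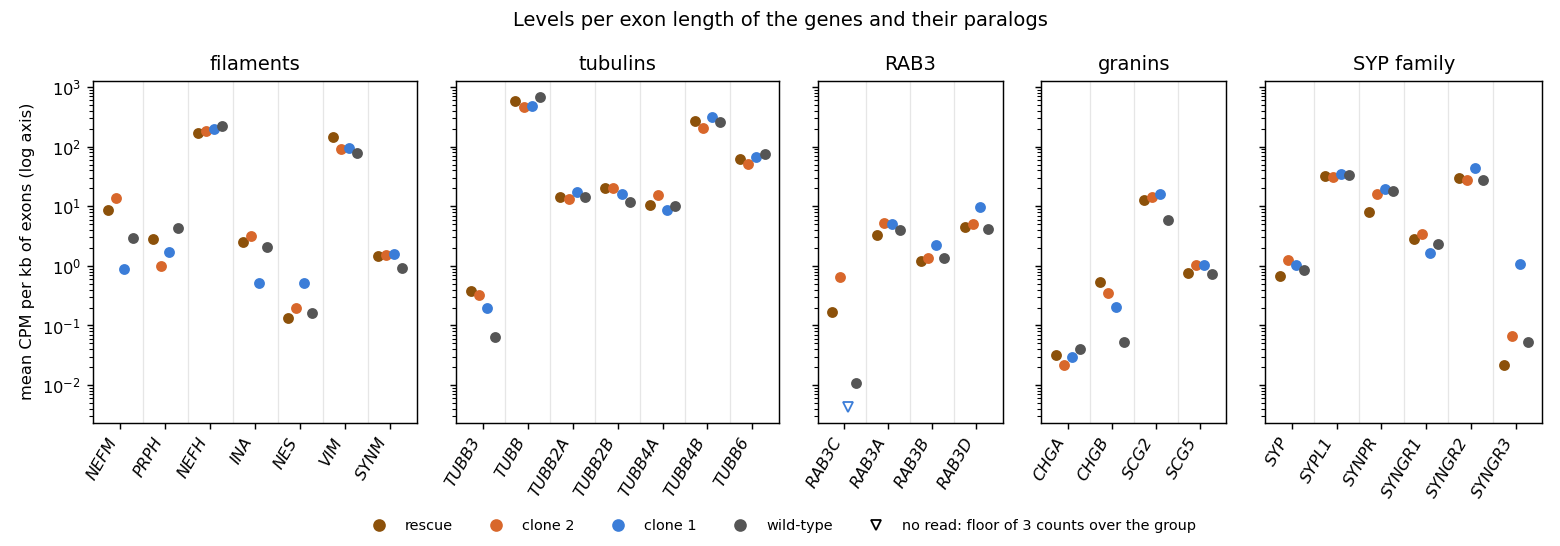
Mean level in CPM per kb of exons (log axis) of the genes and their paralogs in the rescue, clone 2, clone 1 and wild-type groups; the open triangle marks RAB3C in clone 1, which had no read, at a floor of 3 counts over the group. NEFH, at 169.9 to 222.3, lies above NEFM and PRPH in each group, and TUBB3, at 0.0638 to 0.384, below the other beta-tubulins. How reads of the exonic part that TUBB3 shares with AC092143.1 were assigned is uncertain.

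The SNARE machinery fuses vesicles with the plasma membrane. Of 18 genes tested of 20 listed, 3 rose and 6 fell in clone 1, 9 were called higher and 5 lower in clone 2, and 8 rose and 4 fell in the rescue line, each against wild-type. The 6 that fell in clone 1 were 3 without clone 1 replicate 2 or with library totals as the only scaling. Against clone 2, 2 rose in the rescue line, 4 fell and 12 did not pass the test, and without rescue replicate 2 the number that fell was 2. All genes tested gave 30.8% higher and 30.7% lower in clone 1 and 31.5% and 30.6% in clone 2, against wild-type. They gave 28.5% and 29.9% in rescue against wild-type and 19.3% and 19.9% in rescue against clone 2. STX1A, the neuronal syntaxin, rose 1.70-fold in rescue against wild-type and 1.22-fold in rescue against clone 2 (edgeR adjusted p = 0.00303). STXBP5, tomosyn, fell to 0.681 of wild-type in clone 1.

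REST, the repressor that keeps neuronal genes silent outside neurons, stood at 47.5 CPM in the rescue libraries, 49.1 in clone 2, 47.3 in clone 1 and 51.1 in wild-type. Against wild-type it fell by 0.11 on the log2 scale in the rescue line (edgeR adjusted p = 0.0467) and by 0.11 in clone 1 (edgeR adjusted p = 0.0394). Clone 2 against wild-type had a log2 fold change of -0.06 for REST (SE 0.047), which was not called. REST was named after its values were seen. Its partner family includes RCOR2, a corepressor, which had 1.18 ± 0.340 CPM in the rescue libraries, 2.73 ± 0.214 in clone 2, 26.9 ± 1.19 in clone 1 and 7.12 ± 0.619 in wild-type. RCOR2 rose 3.78-fold in clone 1 against wild-type (edgeR adjusted p = 8.54e-23) and fell to 0.430 of clone 2 in the rescue line (edgeR adjusted p = 7.89e-07).  PTBP2, a splicing factor of neurons, was 1.72-fold above wild-type in clone 2 and 1.57-fold above it in the rescue line. In rescue against clone 2 PTBP2 fell by 0.13 on the log2 scale (edgeR adjusted p = 0.0323). Of 12 genes tested of 15 listed, 3 rose and 9 fell in clone 1, 3 were called higher and 7 lower in clone 2 and 3 rose and 6 fell in the rescue line, against wild-type. In rescue against clone 2, 4 rose and 3 fell, where 19.3% of all genes tested were called higher and 19.9% lower. Against wild-type these shares were 30.8% and 30.7% in clone 1, 31.5% and 30.6% in clone 2 and 28.5% and 29.9% in rescue.

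**Figure D4:**
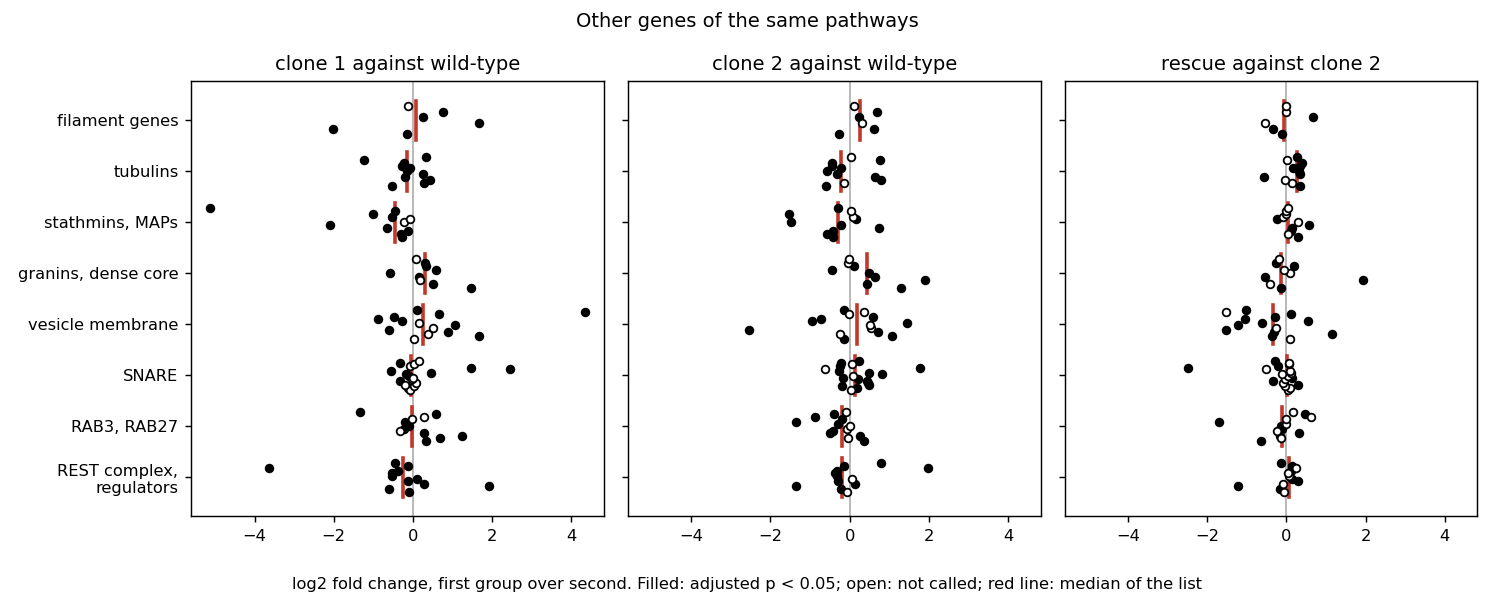
Log2 fold change, first group over second (horizontal axis), of the other genes of 8 pathway lists in clone 1 against wild-type, clone 2 against wild-type and rescue against clone 2; filled points passed the adjusted p, open points did not, and red lines are list medians. The median of stathmins and microtubule-associated proteins lies at -0.44 in clone 1 and that of vesicle membrane proteins at -0.35 in rescue against clone 2.

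The genes most like each of the 6 in pattern were sought among 12089 genes at 1 CPM or more. The measure was the root mean square difference in log2 CPM over the 4 group means, each gene centred on its own mean, and it is a description with no test. For NEFM, whose group means spanned 3.94 on the log2 scale, the nearest were RAB9B, PTPRZ1 and MGAT5, at 0.247, 0.315 and 0.334. PTPRZ1, a receptor phosphatase of glia and neural progenitors, stood at 3.82 CPM in the rescue libraries, 3.46 in clone 2, 0.298 in clone 1 and 0.782 in wild-type. For PRPH the nearest were ANO5, FGFBP3 and RIPK4, at 0.266 to 0.344. For TUBB3 they were SAMD9, PPP2R2B and CYP2C8, at 0.0498, 0.0776 and 0.0997, of which CYP2C8 belongs to a family with close copies and is uncertain. For CHGB they were SLCO1C1, NT5E and ZCWPW1, at 0.0409, 0.0930 and 0.231. For SYP they were BEST1, NR0B1 and CBARP, at 0.0315, 0.0508 and 0.0616, and NR0B1, a nuclear receptor induced by the fusion protein of Ewing sarcoma, had 116.4 CPM in the rescue libraries, 213.6 in clone 2, 160.6 in clone 1 and 139.9 in wild-type. For RAB3C, BICC1, NOS1 and GPX3 came nearest, at 0.695, 0.698 and 0.748, with a span of 6.31 for RAB3C itself. RAB3C had no read in clone 1, so these values depend on the small count added before the log was taken.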

How the data were processed

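Gene counts of 12 polyadenylated RNA libraries were used. The deposited values are raw read counts per gene, with 1 column per library, and each column was matched to a sample by its title. The submitters' processing notes name FastQC, STAR and the hg38 build, without versions. Not given in the sources used here are the counting program, whether it used strand, its annotation, and any filter behind the 21569 rows. Coordinates (hg38), exonic lengths and overlaps were taken from GENCODE release 29, which held 20825 of the identifiers, and gene names were looked up by identifier.

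The test on these counts was the quasi-likelihood test of edgeR 4.0.16 in R 4.3.3. It used TMM scaling, filtering by expression per group (minimum count 10), and 1 model of the 12 libraries, leaving 8 residual degrees of freedom. The common biological coefficient of variation was 2.95%. SE is the log2 fold change over the square root of F. Alternatives used limma 3.58.1 (voom), DESeq2 1.42.0, other scalings and filters, fewer samples and a replicate block. The fit was tested on simulated counts. No libraries of a group were near-identical, as chi-square per degree of freedom was 1.54 to 3.16 for each pair.

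The members and gene lists were chosen with earlier results of these data known. Named genes were the 10 members, ID2, from each list and comparison the called gene that rose and the one that fell most at a mean of 1 CPM or more, of which the clearest are printed, the 3 genes nearest each member in pattern, and genes overlapping its exons. Promoters are RefSeq sequences of GRCh38.p14.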

Additional observations from a re-analysis of the deposited data

Results flagged for a closer look

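The clones' effects against wild-type differed from each other for 6 of the genes, by the edgeR test of clone 2 against clone 1, which is the test of that difference since both share the wild-type libraries. The log2 fold changes of clone 2 over clone 1 were 3.94 for NEFM, 0.79 for CHGB, 0.73 for TUBB3, 0.30 for SYP and -0.75 for PRPH, and RAB3C was 153-fold higher in clone 2 against a floor of 3 counts for clone 1, with an exact 95% counting limit of 124.3. Relative to wild-type, NEFM was higher in clone 2 but fell in clone 1, PRPH was lower in both, and TUBB3 and CHGB were higher in both. The calls of CHGB, TUBB3 and SYP each depended on single libraries. RAB3C, CHGB and TUBB3 had been named as higher in clone 2, so their p-values here are not independent of their choice. RAB3C also passed the filter only through the rescue and clone 2 libraries.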

How the results depend on the processing

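No log2 fold change of the 6 genes tested changed its sign under any of 544 recomputations, which leave out RAB3C against clone 1. Of these, 13 lost a call and 6 gained one, all in SYP, CHGB and TUBB3. Recomputations of clone 2 against wild-type, and those with the chromosome median subtracted, had no test and could not lose or gain a call. Among those without a test, 6 moved by more than the SD of log2 CPM within groups. The number of genes that rose in rescue against clone 2 was 2, and 1 with the DESeq2 Wald test. Leaving out single libraries gave 1 to 2 genes higher in rescue against clone 2, 1 to 2 lower in rescue against wild-type, and 3 to 4 higher in clone 2 against clone 1. The cause was not tested beyond the smaller number of samples. Of 1488 recomputed list counts, 1465 stayed within 1.5 times. Same-numbered libraries had deviations correlated at -0.0363 to 0.0518 and others at -0.0822 to 0.0461. These values are small, but they cannot show that pairing by replicate number is absent. With the replicate block the log2 fold change of NEFM in clone 1 against wild-type was -1.69, 5 genes were higher in clone 2 than in clone 1, and no call among the genes changed. The fit without the rescue libraries was added after seeing the data. Depth limits CHGA, with 0 to 6 reads per library, and the wild-type levels of RAB3C, TUBB3 and CHGB.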
